A study of Homo sapiens with 10 samples.

Results

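The genes described here make cholesterol and fatty acids or control and move sterols, 34 in all. They were compared between SH-SY5Y cells stably carrying SOD1(G93A), the superoxide dismutase 1 mutant of familial amyotrophic lateral sclerosis (ALS), and SH-SY5Y cells stably carrying wild-type SOD1. SH-SY5Y is a human neuroblastoma line. Affymetrix arrays gave 1 log2 level per gene-level probe set in 5 SOD1(G93A) samples (numbered 3, 9, 12, 15 and 18 in their titles) and 5 wild-type SOD1 samples (numbered 2, 8, 11, 14 and 17). Both lines were grown in 10% serum under G418, which keeps the transfected DNA. The labels do not say whether a line was a clone or a pool, or whether its 5 samples came from separate cultures, so p-values measure only the spread between these samples, and the construct cannot be told apart from any other difference between the lines. A gene was read from the probe set annotated with its symbol alone, and 29 of the 34 genes had one, among 14232 named genes in all. ACAT2, CYP51A1, HSD17B7, SREBF2 and NPC2 share their probe sets with other genes and are not analysed here.

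Cells build cholesterol from acetyl-CoA, first through mevalonate to isoprenoid units and then through squalene and a chain of sterols. The pathway is set by sterol regulatory element-binding proteins (SREBPs), transcription factors that SCAP carries out of the endoplasmic reticulum when sterols are scarce and that INSIG proteins hold back when sterols are plentiful. SREBPs act beside the factor NF-Y, and they also drive fatty acid synthesis. Neurons need cholesterol for membranes and synapses, and the nervous system makes its own supply.

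The labelled cell type was checked first. All 9 measured sympathetic neuroblast markers lay above the lower quartile of the probe sets, a level of 3.84 to 3.89 across arrays. Their mean level was 9.30 to 9.53 in SOD1(G93A) arrays and 9.36 to 9.54 in wild-type SOD1 arrays. Single markers ran from TH, at 5.67 in SOD1(G93A) and 5.59 in wild-type SOD1 arrays, to STMN2, at 12.24 and 12.27. TH thus lay below the array medians, which are given at the end of this paragraph. Of these markers CHGA was called higher, and GATA2 and GATA3 lower, in the SOD1(G93A) line. Of 6 adipocyte or hepatocyte markers 4 lay below that quartile (ADIPOQ, FABP4, ALB and TTR), and none was called by limma, by the unmoderated test or at an unadjusted p under 0.05 (0 in each). PLIN1 and APOA1 lay above it, APOA1 at 5.92 in SOD1(G93A) and 5.89 in wild-type SOD1 arrays. Lying above that quartile therefore does not by itself set apart markers of the labelled line. Of 5 immune or endothelial markers 3 lay below it. Of 3 Schwann and glial markers 0 lay below it; S100B was called higher, while SOX10 differed by −0.04 and GFAP by −0.03. Of 6 mesenchymal markers 1 lay below it (PRRX1); FN1 was called higher, and of the other 5, none called, COL1A1 and LUM had differences above 0 and COL1A2, PRRX1 and TWIST1 below 0. The mean level of the mesenchymal list was 6.53 to 6.60 in SOD1(G93A) and 6.41 to 6.61 in wild-type SOD1 arrays, and that of the Schwann and glial list 4.72 to 4.88 in SOD1(G93A) and 4.53 to 4.64 in wild-type SOD1 arrays. The part of these markers in the results was not tested. SOD1 itself was 9.55 ± 0.09 in SOD1(G93A) and 9.78 ± 0.13 in wild-type SOD1 arrays (SD, n = 5 each; limma adjusted p = 0.107). Array medians lay between 6.26 and 6.34.

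Of the lipid synthesis genes measured, only STARD4 and MVK were called as different between the 2 lines in the reported fit. STARD4, a carrier that moves cholesterol between membranes, rose to 183% of its wild-type level, and MVK, mevalonate kinase, fell to 73.5% of its wild-type level. A gene was called at a Benjamini-Hochberg adjusted p of 0.05 or less in limma, adjusted over all 22011 probe sets. By that rule 1 gene was higher and 1 lower of 29, or 6.9%, against 9.6% of all named genes (4.03% higher and 5.57% lower). The count of calls moved with the processing. It was 4 of 29 without SOD1(G93A) sample 3 or with median-centred arrays, and 5 of 27 among probe sets brighter than the median. The share of named genes called was not computed for these settings, so these counts cannot be read as few or many. With single-symbol probe sets alone it was 5 of 29 (17.2%, against 11.9% of named genes). The share of the 29 genes thus lay below that of named genes in the reported fit and above it in this setting. Over the whole table, limma called 1643 of 22011 probe sets in the reported fit and 1689 with median-centred arrays. It called 1275 when only probe sets brighter than the median were tested, and 1274 to 1562 with single arrays left out. In the reported fit 0 of the 29 passed the 2-fold threshold of the labels, by limma with or without moderation, against 1.18% of named genes, and 7 had an unadjusted p under 0.05 (3 higher, 4 lower), which is 24.1% of the genes against 21.7% of named genes. The median log2 fold change over the 29 genes was −0.0004, against −0.0043 over named genes. Differences of opposite sign cancel in that median. Without sign, the median log2 fold change was 0.125 over the 29 genes, against 0.0862 over named genes. In a bulk sample, fewer cells expressing a gene and less RNA per cell cannot be told apart.

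**Figure D1:**
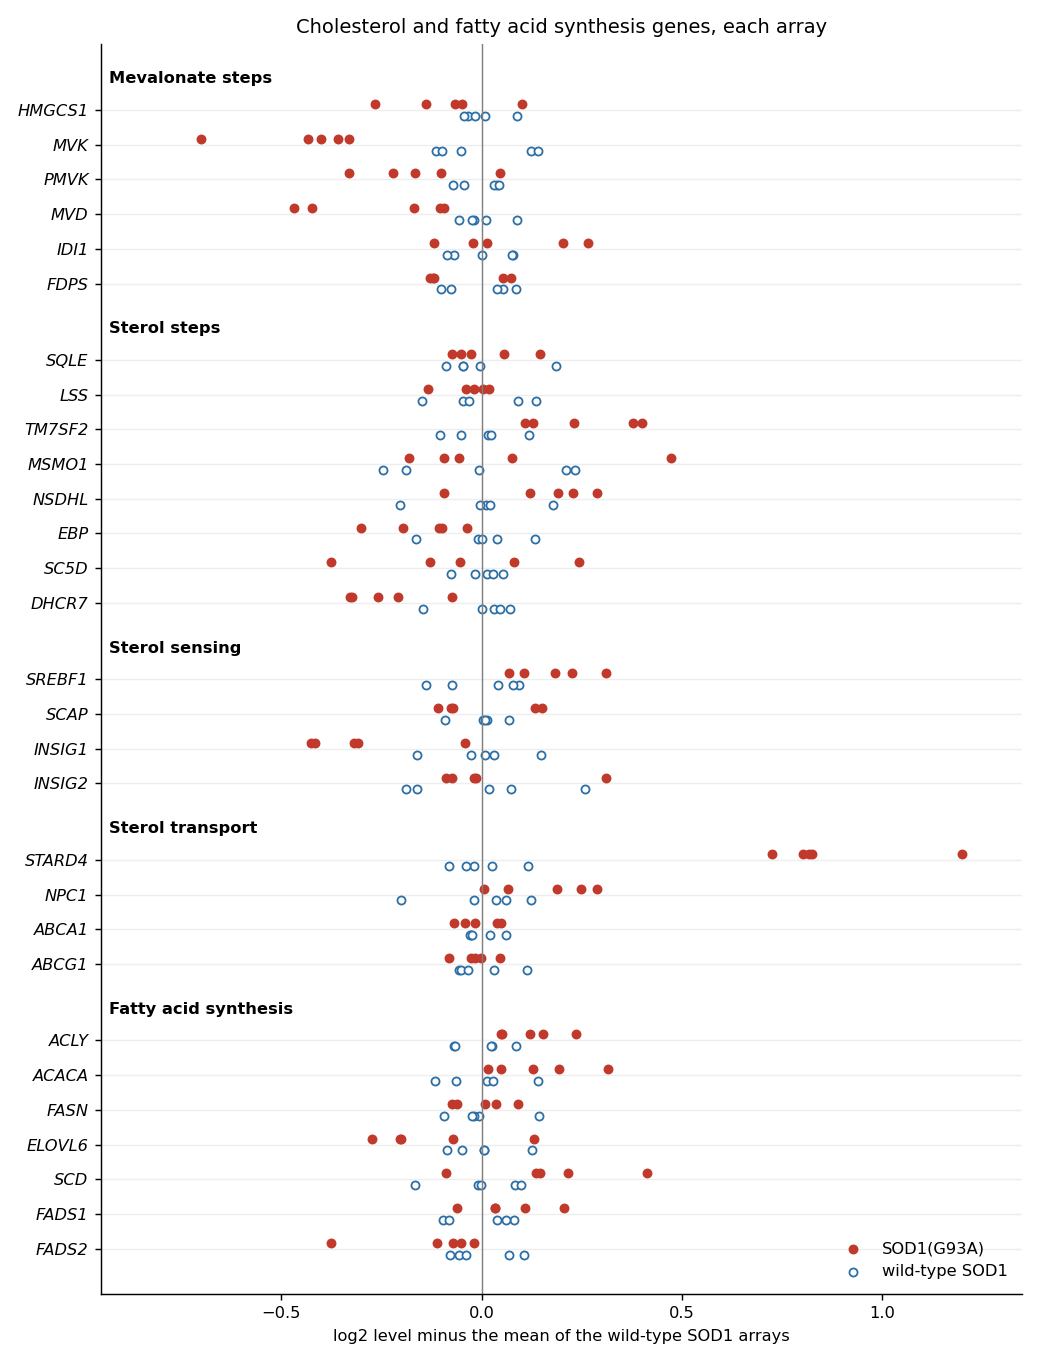
Each gene's log2 level on every array minus the mean of the wild-type SOD1 arrays (x axis), with genes in pathway order down the page; filled red points are the 5 SOD1(G93A) arrays and open blue points the 5 wild-type SOD1 arrays. STARD4 lies apart to the right and MVK to the left, and the points of most other genes intermingle.

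STARD4 showed the widest separation. Its log2 levels were 8.87, 8.87, 8.78, 8.85 and 9.25 in SOD1(G93A) samples 3, 9, 12, 15 and 18, and 8.03, 7.97, 8.17, 8.08 and 8.01 in wild-type SOD1 samples 2, 8, 11, 14 and 17. The lowest SOD1(G93A) array stood above the highest wild-type SOD1 array, and sample 18 stood above its own group. The log2 fold change was 0.87 (SE 0.09, 95% interval 0.68 to 1.07, limma adjusted p = 0.000111), a 1.83-fold difference. The call held without each array in turn, sample 18 included, with log2 fold changes of 0.79 to 0.91.

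MVK, which phosphorylates mevalonate, moved the other way. Its levels were 7.21, 6.87, 7.13, 7.24 and 7.17 in SOD1(G93A) samples 3, 9, 12, 15 and 18, and 7.45, 7.47, 7.69, 7.52 and 7.71 in wild-type SOD1 samples 2, 8, 11, 14 and 17. Every SOD1(G93A) array was below every wild-type SOD1 array, with sample 9 the lowest. The log2 fold change was −0.45 (SE 0.09, 95% interval −0.63 to −0.26, limma adjusted p = 0.00817), and without each array in turn it ran from −0.47 to −0.38 and stayed called.

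The sequences before the starts of these genes are shown because the genes moved in opposite directions while both carry NF-Y boxes, CCAAT on either strand. Each line gives the 250 bases before the RefSeq start (build GRCh38.p14), with the boxes in capitals. STARD4 is read from the minus strand at chr5:111512536-111512785 and MVK from the plus strand at chr12:109573544-109573793.
STARD4: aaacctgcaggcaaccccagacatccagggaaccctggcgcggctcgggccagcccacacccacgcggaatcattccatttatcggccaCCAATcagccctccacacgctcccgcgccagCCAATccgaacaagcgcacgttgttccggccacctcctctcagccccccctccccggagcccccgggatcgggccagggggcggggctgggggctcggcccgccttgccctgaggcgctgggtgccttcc
MVK: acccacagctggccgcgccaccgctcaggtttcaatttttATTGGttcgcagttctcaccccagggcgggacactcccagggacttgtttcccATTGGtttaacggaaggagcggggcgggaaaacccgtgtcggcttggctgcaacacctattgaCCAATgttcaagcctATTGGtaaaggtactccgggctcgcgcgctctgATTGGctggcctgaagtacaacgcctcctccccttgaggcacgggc

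STARD4 held 2 NF-Y boxes, the letters CCAAT reading along the gene, starting 161 and 130 bases before its start. MVK held 5, of which 1 read along the gene and 4 read as ATTGG, the complement, with the nearest spanning bases 46 to 42 before the start. Sp1 boxes (GGGCGG on either strand) numbered 1 in the STARD4 stretch and 2 in the MVK stretch. RefSeq windows of 300 bases, 250 before and 50 after a start, were found for 30 of the 34 genes, 41 windows in all. CCAAT stood in 15 of 20 windows of cholesterol synthesis genes and in 6 of 10 of fatty acid genes. Among sterol sensors it stood in 2 of 6 windows, and among sterol transporters in 2 of 5. Over the 41 windows the share was 61.0%, against 34.6% of all 35116 windows. Some genes have several windows that overlap, and windows of CYP51A1, HSD17B7, SREBF2 and NPC2 are included. GGGCGG stood in 37 of the 41 windows (90.2%), against 45.0% of all windows. All windows came from 27305 genes, not limited to those expressed in these cells. Whether other genes of like level have similar shares was not tested. The sterol regulatory element, searched as TCACNCCAC on both strands, stood in 1 of the 41, that of SREBF2, against 1.13% of all windows, and no match overlapped a match of another motif. A match of letters is a description and not a bound site. Elements that depart from the searched letters, or lie outside the window, were not looked for, so a window without a match may still have one.

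Both called genes have measured neighbours on the chromosome that moved the same way. Called neighbours also stood beside genes without a call, such as NSDHL (3 higher and 1 lower of 8), while others, such as HMGCS1, had 0. Among the 8 measured genes nearest to MVK on chromosome 12 in RefSeq gene order, 3 were called lower and 0 higher by limma, and 6 had a difference below 0; over all named genes 5.57% were called lower. MMAB, which encodes a cobalamin adenosyltransferase, starts 290 bases from MVK on the opposite strand, so the MVK stretch above lies between the 2 starts. MMAB averaged 7.52 ± 0.15 in SOD1(G93A) and 7.82 ± 0.06 in wild-type SOD1 arrays (SD, n = 5 each; log2 fold change −0.31, SE 0.07, limma adjusted p = 0.0282). On the other side FAM222A fell by 0.62 (SE 0.06, adjusted p = 0.000133), and GLTP, a glycolipid transfer protein gene, fell by 0.34 (SE 0.09, adjusted p = 0.0374). UBE3B and KCTD10, beyond MMAB, differed by −0.07 and 0.03 and were not called.

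STARD4 on chromosome 5 had 1 called neighbour of 8. CAMK4, which encodes a calcium/calmodulin-dependent kinase and is the next measured gene, averaged 9.18 ± 0.08 in SOD1(G93A) and 8.54 ± 0.10 in wild-type SOD1 arrays (SD, n = 5 each; log2 fold change 0.64, SE 0.07, limma adjusted p = 0.000121). NREP on the far side differed by 0.26 (SE 0.11) and was not called. Over all 29 genes, each neighbour counted once, 10 of 223 were called higher and 12 lower, or 9.87% in all, close to the 9.6% of named genes. The neighbours were looked up after the values of STARD4 and MVK were known.

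**Figure D2:**
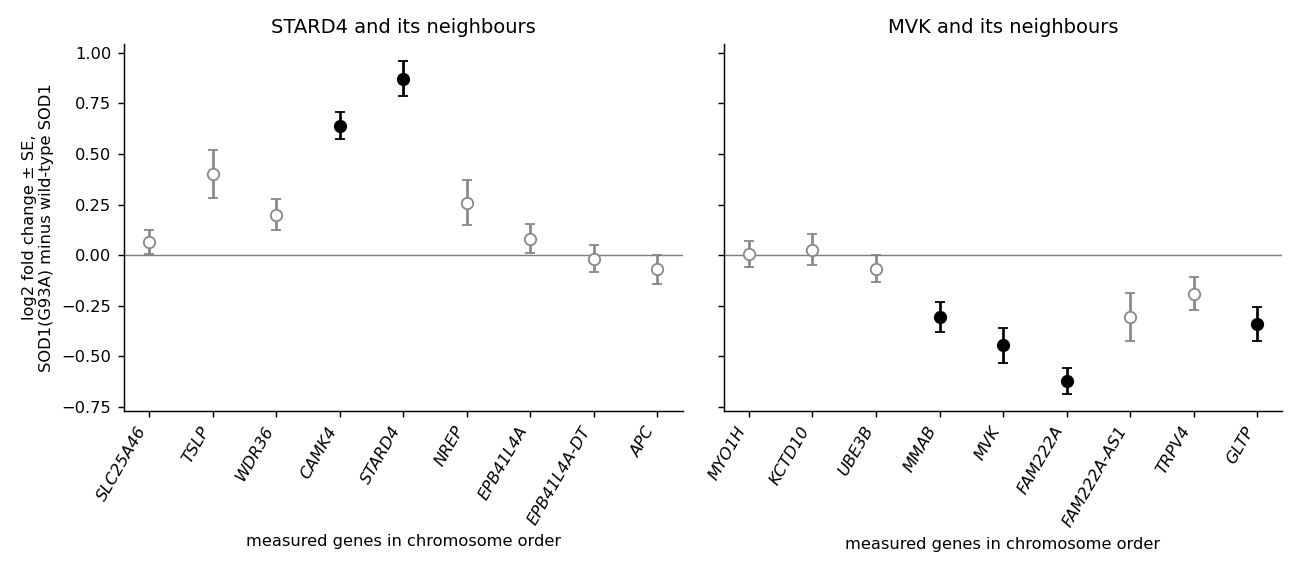
Log2 fold change with its SE (y axis, SOD1(G93A) minus wild-type SOD1) for STARD4, MVK and the 4 nearest measured genes on each side, in chromosome order (x axis, places and not distances); filled points were called. CAMK4 rose beside STARD4, and MMAB, FAM222A and GLTP fell beside MVK.

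The other enzymes of the mevalonate steps lay level with or slightly below wild type. MVD, mevalonate diphosphate decarboxylase, had levels of 6.77, 6.40, 6.76, 6.70 and 6.45 in SOD1(G93A) samples 3, 9, 12, 15 and 18, and 6.96, 6.85, 6.85, 6.81 and 6.88 in wild-type SOD1 samples 2, 8, 11, 14 and 17. The groups did not overlap, yet the difference was not called (log2 fold change −0.25, SE 0.08, limma adjusted p = 0.113), and SOD1(G93A) samples 9 and 18 were the lowest. PMVK, phosphomevalonate kinase, averaged 9.17 ± 0.14 in SOD1(G93A) and 9.32 ± 0.05 in wild-type SOD1 arrays (log2 fold change −0.16, adjusted p = 0.276).

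HMGCS1, which makes HMG-CoA at the head of the pathway, differed by −0.08 (95% interval −0.24 to 0.07). FDPS, which joins isoprenoid units into farnesyl diphosphate, differed by −0.05, and IDI1, the isopentenyl diphosphate isomerase, by 0.07. In 5 of the 6 mevalonate genes the difference was below 0, as was that of 7308 of the 14232 named genes. The mean level over all 6, MVK included, was 7.65 to 7.79 in SOD1(G93A) arrays and 7.83 to 7.90 in wild-type SOD1 arrays. These ranges did not overlap, but MVK, which was called lower, is part of that gap. A mean without MVK is not given, so whether the other mevalonate genes together show a gap is not stated here. Taken singly, MVD did not overlap between the groups, while HMGCS1, PMVK, IDI1 and FDPS did. The groups did not overlap in 3 single genes of the 29 (STARD4, MVK and MVD), or close to the share of named genes without overlap, 11.4%.

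None of the 8 measured enzymes of the sterol steps was called by limma. At an unadjusted p under 0.05 there were 1 higher and 1 lower, 25.0% against 21.7% of named genes. Limma with an intensity-dependent prior called 1 (DHCR7) and the unmoderated test 0. DHCR7, the reductase of the last step to cholesterol, had levels of 8.28, 8.09, 8.02, 8.03 and 8.14 in SOD1(G93A) samples 3, 9, 12, 15 and 18, and 8.35, 8.38, 8.42, 8.20 and 8.40 in wild-type SOD1 samples 2, 8, 11, 14 and 17. The groups overlapped through SOD1(G93A) sample 3 and wild-type SOD1 sample 14, and the log2 fold change was −0.24 (SE 0.07, limma adjusted p = 0.0576). It was called without SOD1(G93A) sample 3 (adjusted p = 0.0283) or without wild-type SOD1 sample 14 (adjusted p = 0.037).

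TM7SF2, a sterol reductase earlier in the chain, leaned the other way. Its levels were 8.01, 7.99, 7.72, 7.74 and 7.84 in SOD1(G93A) samples 3, 9, 12, 15 and 18, and 7.51, 7.63, 7.73, 7.56 and 7.64 in wild-type SOD1 samples 2, 8, 11, 14 and 17. The groups overlapped only through wild-type SOD1 sample 11 and SOD1(G93A) sample 12 (log2 fold change 0.25, SE 0.07, limma adjusted p = 0.0778).

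SQLE, squalene epoxidase, averaged 8.75 ± 0.09 in SOD1(G93A) and 8.74 ± 0.11 in wild-type SOD1 arrays (SD, n = 5 each), a difference of 0.0093 with a 95% interval of −0.14 to 0.16. LSS, the cyclase that forms lanosterol, differed by −0.03 (95% interval −0.18 to 0.11). Both intervals were narrow around 0. MSMO1, a sterol methyl oxidase, had the widest spread of these genes, from 7.04 to 7.70 in SOD1(G93A) arrays and from 6.98 to 7.46 in wild-type SOD1 arrays, and differed by 0.04 (95% interval −0.26 to 0.35). NSDHL, a sterol dehydrogenase, differed by 0.15, EBP, a sterol isomerase, by −0.15, and SC5D, a sterol desaturase, by −0.05. The mean over the 8 sterol enzymes was 8.17 ± 0.08 in SOD1(G93A) and 8.17 ± 0.06 in wild-type SOD1 arrays (SD, n = 5 each).

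**Figure D3:**
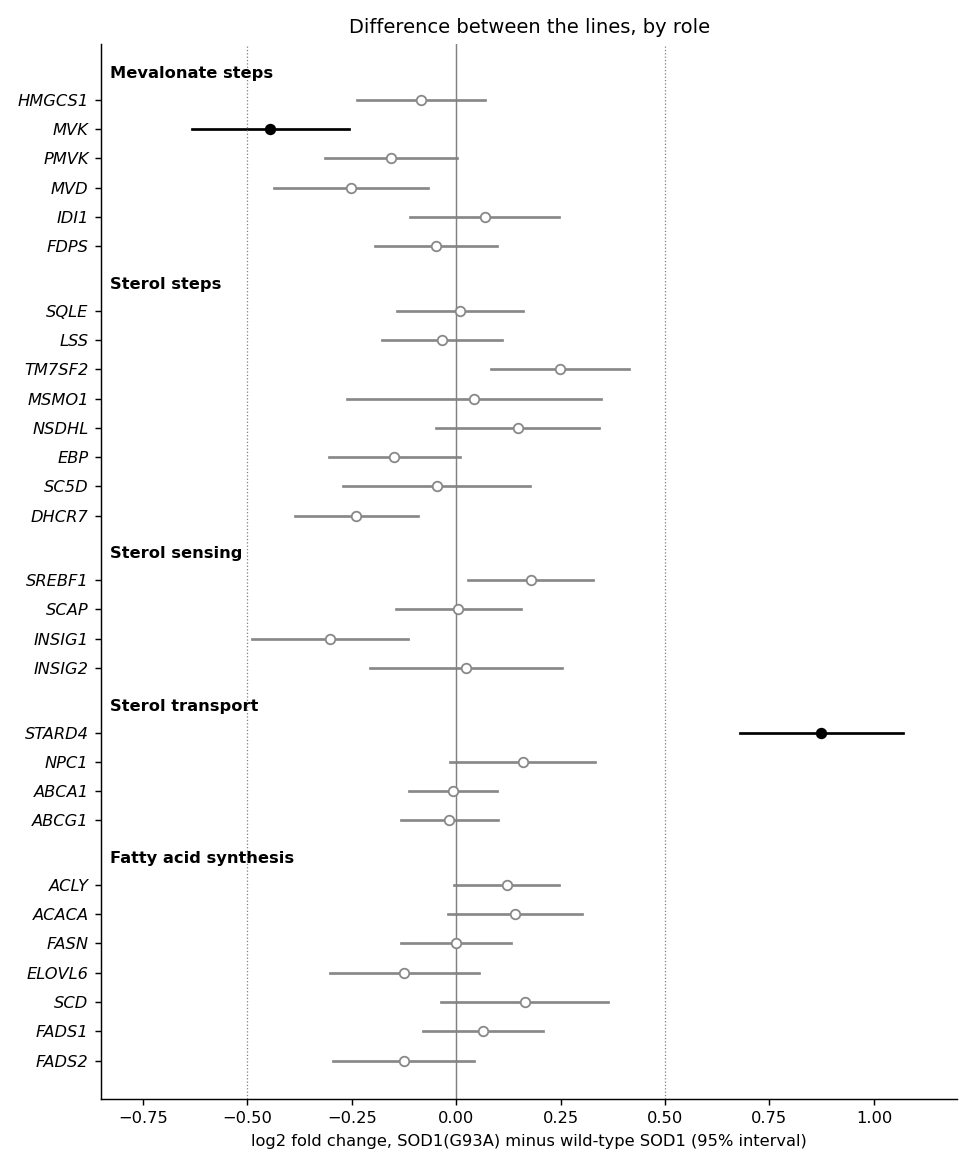
Log2 fold change, SOD1(G93A) minus wild-type SOD1, with its 95% interval (x axis) for the 29 measured genes by role; filled black points were called and dotted lines mark 0.5 in each direction. Apart from STARD4 and MVK, every interval lies between the dotted lines.

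Of the sterol sensors none of 4 was called by limma, with 1 higher and 1 lower at an unadjusted p under 0.05, and 0 by the unmoderated test. INSIG1, the retention protein whose own gene is an SREBP target, had levels of 7.16, 6.78, 6.79, 6.90 and 6.89 in SOD1(G93A) samples 3, 9, 12, 15 and 18, and 7.21, 7.05, 7.35, 7.18 and 7.24 in wild-type SOD1 samples 2, 8, 11, 14 and 17. Only SOD1(G93A) sample 3 reached into the wild-type range. The log2 fold change was −0.30 (SE 0.08, limma adjusted p = 0.0582), and it was −0.37 and called without that sample (adjusted p = 0.0125), as it was without wild-type SOD1 sample 8 (adjusted p = 0.0471).

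SREBF1, which encodes SREBP1, had levels of 7.85, 7.65, 7.77, 7.61 and 7.73 in SOD1(G93A) samples 3, 9, 12, 15 and 18, and 7.40, 7.58, 7.64, 7.47 and 7.62 in wild-type SOD1 samples 2, 8, 11, 14 and 17. SOD1(G93A) sample 15 lay below wild-type SOD1 samples 11 and 17, and the difference of 0.18 (SE 0.07) was not called (limma adjusted p = 0.177). SCAP, the SREBP escort, differed by 0.0051 (95% interval −0.14 to 0.15), and INSIG2, the second retention protein, by 0.02 (95% interval −0.21 to 0.25).

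DHCR7, INSIG1 and TM7SF2 lay near the threshold and were called in some alternatives by limma. With only the single-symbol probe sets tested, the added calls were TM7SF2 (adjusted p = 0.0445), DHCR7 (adjusted p = 0.0341) and INSIG1 (adjusted p = 0.0296). With all probe sets kept, DHCR7 was called with an intensity-dependent prior (adjusted p = 0.0441) and with median-centred arrays (adjusted p = 0.0445). INSIG1 was called with median-centred arrays (adjusted p = 0.039) and after repeated quantile normalization (adjusted p = 0.0349).

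**Figure D4:**
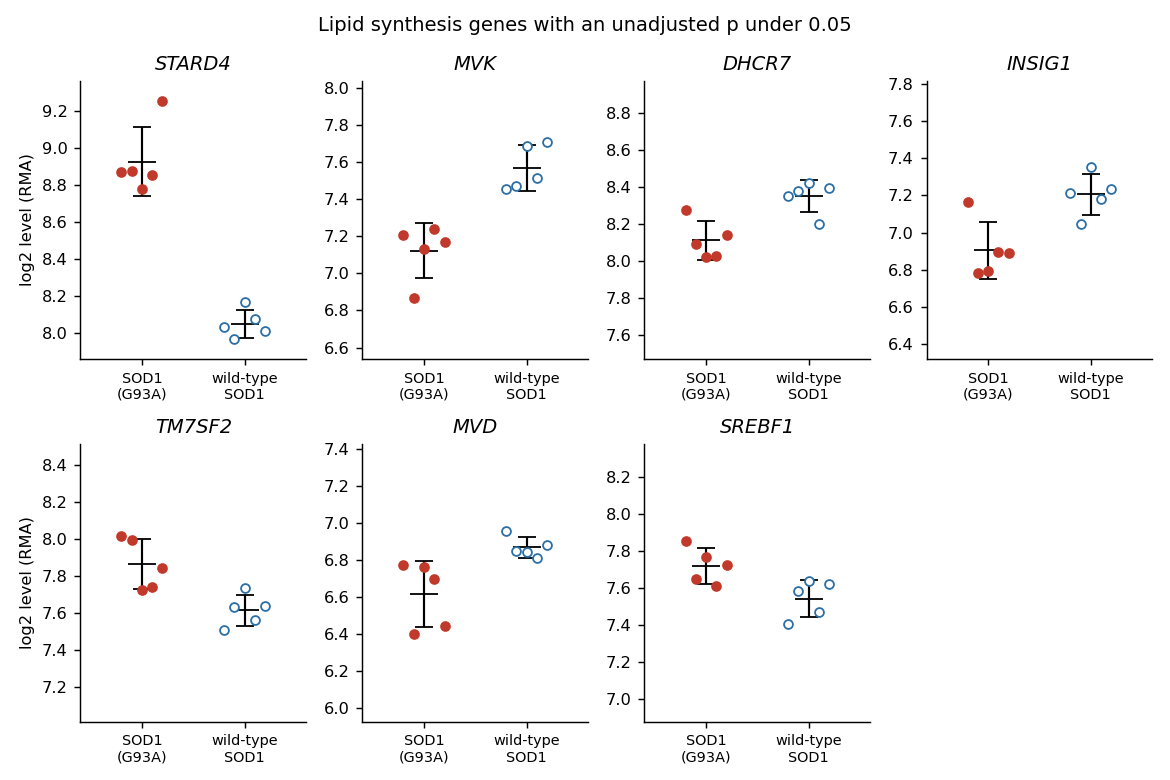
Log2 level (y axis) on each array for the 7 genes with an unadjusted p under 0.05, SOD1(G93A) at the left and wild-type SOD1 at the right of each panel; points are arrays, and bars are the mean and SD (n = 5 each). STARD4 and MVK are separated by group, MVD by a smaller gap, and the other 4 overlap.

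Among sterol transporters other than STARD4, none of the 3 was called. NPC1, which exports cholesterol from lysosomes, averaged 7.41 ± 0.12 in SOD1(G93A) and 7.25 ± 0.12 in wild-type SOD1 arrays (SD, n = 5 each; log2 fold change 0.16, limma adjusted p = 0.319). ABCA1 and ABCG1 export cholesterol from the cell and are targets of the liver X receptors, which sense oxysterols. ABCG1 averaged 5.62 ± 0.05 in SOD1(G93A) and 5.64 ± 0.07 in wild-type SOD1 arrays, a difference of −0.02 (95% interval −0.13 to 0.10). ABCA1 averaged 3.11 ± 0.05 in SOD1(G93A) and 3.11 ± 0.04 in wild-type SOD1 arrays, under the lower quartile given above, where differences are compressed.

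None of the 7 fatty acid genes was called by limma or by the unmoderated test. An unadjusted p under 0.05 was found in 0 of the 7, against 21.7% of named genes. ACLY, which supplies cytosolic acetyl-CoA, differed by 0.12 (95% interval −0.0050 to 0.25), and ACACA, acetyl-CoA carboxylase, by 0.14 (95% interval −0.02 to 0.30). FASN, the fatty acid synthase, averaged 9.16 ± 0.07 in SOD1(G93A) and 9.16 ± 0.09 in wild-type SOD1 arrays (SD, n = 5 each), and its 95% interval ran from −0.13 to 0.13.

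SCD, the desaturase that makes oleate, had levels of 9.10, 9.09, 8.87, 9.17 and 9.37 in SOD1(G93A) samples 3, 9, 12, 15 and 18, and 8.95, 9.04, 9.05, 8.95 and 8.79 in wild-type SOD1 samples 2, 8, 11, 14 and 17. The groups overlapped through SOD1(G93A) sample 12, and the difference of 0.16 was not called (limma adjusted p = 0.387). ELOVL6, an elongase, differed by −0.12, and the polyunsaturated fatty acid desaturases FADS1 and FADS2 by 0.06 and −0.13. Of the 27 genes without a call in the 29, all 27 had a 95% interval inside 0.5 on the log2 scale in either direction, with bounds from −0.49 (INSIG1) to 0.41 (TM7SF2). Among named genes without a call 92.4% had such an interval; called genes included, the shares were 93.1% of the 29 genes and 86.1% of named genes.

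Some arrays of a line were more often at the top or bottom of their group than others. SOD1(G93A) sample 18 was the highest of its 5 arrays in 12 of the 29 genes (41.4%), against 29.1% of named genes, and after centring each array on its median in 11 of 29 (37.9%), against 22.7%. SOD1(G93A) sample 9 was the lowest in 10 of 29 (34.5%), against 29.8% of named genes, but after centring in 5 of 29 (17.2%), against 24.6%, so its place turned with the scaling. SOD1(G93A) sample 12 was the lowest in 10 of 29, against 25.4% of named genes, and after centring in 8 of 29 (27.6%), against 17.8%. Wild-type SOD1 sample 11 was the highest of its 5 arrays in 15 of 29 genes (51.7%), against 26.2% of named genes, and in 13 of 29 after centring (44.8%), against 3420 of the 14232 named genes. Wild-type SOD1 sample 2 was the lowest in 10 of 29 (34.5%), against 21.7% of named genes, and in 10 of 29 after centring, against 22.2%. These shares describe the arrays and were not tested; genes of an array share its RNA and its scaling.

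Further genes of lipid handling were listed by function from textbook knowledge, and of 71 measured 3 rose and 6 fell (12.7%, against 9.6% of named genes). The groups did not overlap in any of these 9, which largely follows from their having been called. Over all 71 genes they did not overlap in 12, against 11.4% of named genes. In the list of SREBP processing and sterol sensing, 1 of 12 rose and 2 fell (25.0%, against 9.6% of named genes). The same numbers had an unadjusted p under 0.05, where the share of named genes was 21.7%. RXRA, a retinoid X receptor that pairs with liver X receptors, fell to 6.40, 6.18, 6.43, 6.47 and 6.22 in SOD1(G93A) samples 3, 9, 12, 15 and 18, against 6.94, 7.05, 7.28, 7.18 and 7.24 in wild-type SOD1 samples 2, 8, 11, 14 and 17. It stood at 57.4% of its wild-type level (log2 fold change −0.80, SE 0.08, limma adjusted p = 0.000154). RXRB, another retinoid X receptor of this list, averaged 8.24 in SOD1(G93A) and 8.33 in wild-type SOD1 arrays. Its difference of −0.09 was not called (limma adjusted p = 0.476). NR1H3, which encodes a liver X receptor, rose by 0.30 (SE 0.07, adjusted p = 0.0165). MYLIP, a ubiquitin ligase that lowers lipoprotein receptors and is a target of the liver X receptors, fell by 0.31 (SE 0.06, adjusted p = 0.00797).

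Of 26 genes of sterol uptake, esterification and oxysterols, 1 rose and 2 fell (11.5%, against 9.6% of named genes). At an unadjusted p under 0.05 there were 6 higher and 4 lower, 38.5% against 21.7% of named genes. GRAMD1B, which moves cholesterol from the plasma membrane to the endoplasmic reticulum, fell to 5.92, 5.98, 5.90, 6.07 and 5.75 in SOD1(G93A) samples 3, 9, 12, 15 and 18, against 6.82, 6.70, 6.97, 6.76 and 7.02 in wild-type SOD1 samples 2, 8, 11, 14 and 17. It stood at 52.5% of its wild-type level (log2 fold change −0.93, SE 0.08, limma adjusted p = 3.21e-05), and every SOD1(G93A) array lay below every wild-type SOD1 array. SOAT1, which esterifies cholesterol for storage, rose by 0.27 (SE 0.07, adjusted p = 0.0291), and LRP1, an endocytic lipoprotein receptor, fell by 0.26 (SE 0.06, adjusted p = 0.0323). Leaving out any 1 of 8 arrays ended the SOAT1 call, with adjusted p-values reaching 0.0736. For LRP1 any 1 of 7 did so, reaching 0.0841.

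Of 23 genes of fatty acid supply, elongation and activation, 1 rose and 2 fell (3 of 23, against 9.6% of named genes). At an unadjusted p under 0.05 there were 2 higher and 9 lower, 47.8% against 21.7% of named genes, and 18 of the 23 differences were below 0. LPIN1, a phosphatidate phosphatase of triglyceride synthesis, fell by 0.54 (SE 0.06, limma adjusted p = 0.000194). It lies between SH3YL1 and ACYP2 on chromosome 2, a stretch of 201 measured genes. Of these, 101 were called lower and 2 higher, with a median log2 fold change of −0.37, while 5.57% of all named genes were called lower. The ends of the stretch were set by hand with earlier results of these data known, so its counts are only a description. None of the 29 genes lies in it. FADS3, a relative of FADS1 and FADS2, rose by 0.37 (SE 0.07, adjusted p = 0.01). DGAT2, which makes triglycerides, fell by 0.28 (SE 0.07, adjusted p = 0.0288), a call that ended when any 1 of 8 arrays was left out, with adjusted p-values reaching 0.0759. Of 10 genes of the isoprenoid branches limma called 0, as did the unmoderated fit. An unadjusted p under 0.05 was found in 0 of them, against 21.7% of named genes.

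**Figure D5:**
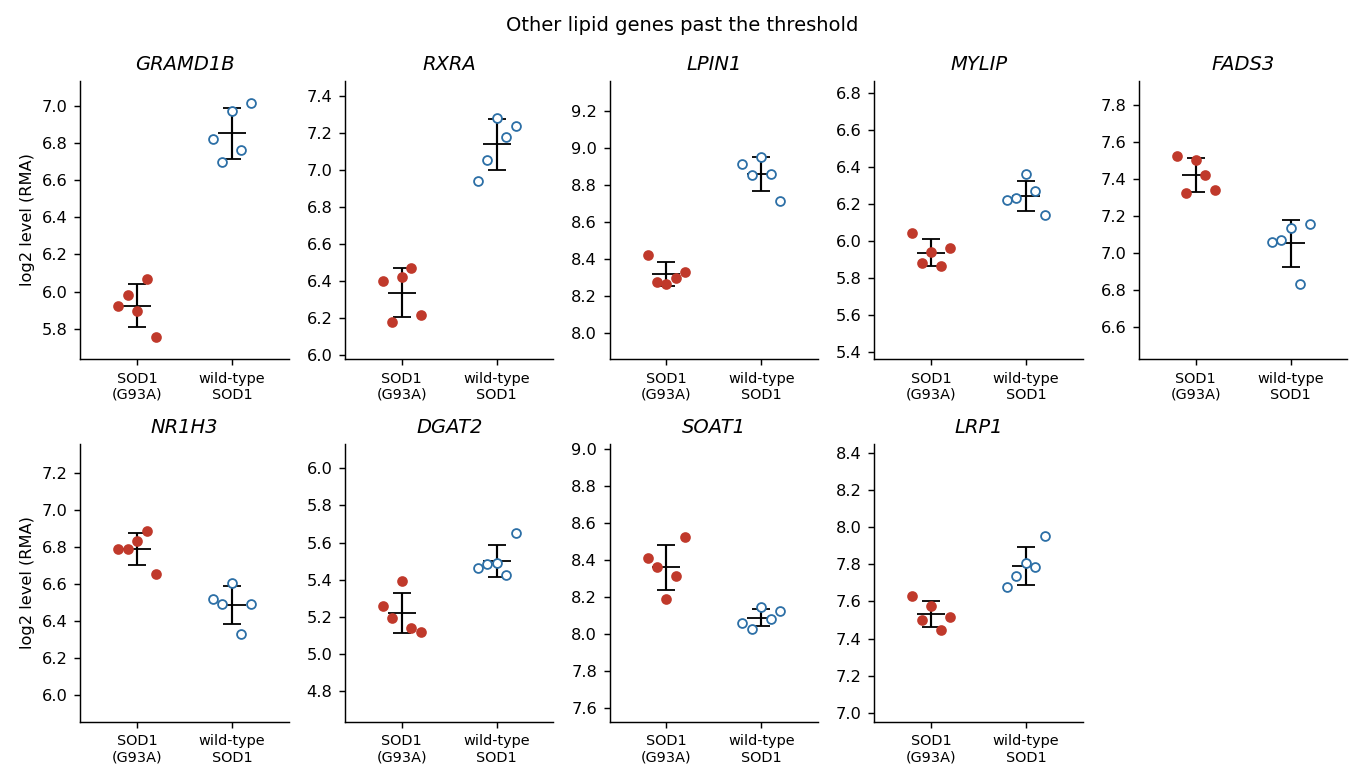
Log2 level (y axis) on each array for the 9 other lipid genes past the threshold, SOD1(G93A) at the left and wild-type SOD1 at the right of each panel; points are arrays, and bars are the mean and SD (n = 5 each). GRAMD1B, RXRA and LPIN1 show the widest gaps, all lower in SOD1(G93A).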

How the data were processed

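Per the submitters' processing notes and the labels, the authors made the deposited values with RMA and worked in oneChannelGUI 1.6.5. The values are log2 levels, 1 per probe set and array. RMA makes array distributions alike, so a shift of all genes together is not visible, and differences of dim probe sets are compressed. No label or header gives a genome build, filter or detection call. Precision is limited by the number of arrays.

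Of 22011 probe sets, 14432 had 1 gene symbol in the platform annotation, 2408 several and 5171 none. Each gene was read from its single-symbol probe set of highest mean level across the 10 arrays. The fit was limma 3.58.1 in R 4.3.3 (lmFit, eBayes, 2-sided) on all probe sets with no filter. Each log2 fold change is the SOD1(G93A) mean minus the wild-type SOD1 mean. Groups came from the sample titles. The script was tested on simulated data. Alternatives were another variance prior, no moderation, 2 filters, 2 scalings, array weights and leaving out each array.

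The genes, lists and motifs were chosen with earlier results of these data known, so no p is adjusted over a list alone and no list was tested as a set. All 34 genes, every called gene of the other lists (at most 8 per list), SOD1 and the called or extreme markers were to be named. The chromosome neighbours and RXRB were named after values were seen. Gene order is that of RefSeq GCF_000001405.40 GRCh38.p14.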

Additional observations from a re-analysis of the deposited data

Results flagged for a closer look

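In groups of 5 arrays, an array was picked out when its gap to the nearest array exceeded 0.71 of the group's range; chance does this in about 1 in 20 groups, and 58 groups of the 29 genes were examined. It happened 4 times, all in SOD1(G93A) arrays. Sample 18 was the highest of its group for STARD4 (9.25, gap 0.792 of the range) and for INSIG2 (7.72, gap 0.811). Sample 9 was the lowest of its group for MVK (6.87, gap 0.718) and for FADS2 (9.61, gap 0.743). STARD4 stayed called without sample 18 (log2 fold change 0.79) and MVK without sample 9 (log2 fold change −0.38).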

How the results depend on the processing

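STARD4 and MVK were called with the same sign under every alternative run. The count of genes called lower was 1 in the reported fit. It was 2 with an intensity-dependent prior and with repeated quantile normalization, and 3 with median-centred arrays, with single-symbol probe sets alone and with probe sets brighter than the median alone; leaving out single arrays it ran from 1 to 3. The count called higher was 1, and 2 under both filters. The filters test fewer features; otherwise the cause was not tested. Signs turned only in differences near 0 that were never called. SCAP was −0.0026 with median-centred arrays, and FASN 0.0058 after repeated quantile normalization and 0.0071 with array weights. Leaving out samples 17 and 18 together, an alternative added after the data were seen, gave −0.0468 for SQLE, −0.0662 for MSMO1, −0.044 for INSIG2 and 0.0511 for FASN. Leaving out single arrays gave −0.0247 to 0.0558 for SQLE, −0.0645 to 0.1009 for MSMO1, −0.1198 to 0.0353 for SC5D, −0.031 to 0.0335 for SCAP, −0.0485 to 0.0879 for INSIG2, −0.0225 to 0.0066 for ABCA1, −0.0321 to 0.0118 for ABCG1 and −0.0238 to 0.0356 for FASN. Every one of the 29 genes has a single usable probe set, so averaging several was not run. No paired analysis was run because the groups share no replicate number and no label pairs their samples. The numbers in the titles do run in adjacent pairs, such as 17 and 18, but what that order means is not stated.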
